A study of Mus musculus with 11 samples.

Results

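The effect of the insulin receptor antagonist S-961 on islets of multiparous mice was examined in 6 bulk RNA-seq libraries, chosen by their labels from 11 in all. Of these, 4 libraries were labelled multipara with S-961 and 2 were labelled multipara with no treatment. All mice were C57BL/6J wild-type females that were 9 weeks old when they entered the study. Multiparous mice had carried 3 pregnancies. Islets of untreated mice were taken 3 weeks after the last birth, and in treated mice S-961 was given from 3 weeks after it. Treated animals received 2 intraperitoneal injections of S-961 a day (100 nmol/kg) over 3 days, whereas the untreated mice are not described as having received a vehicle. A further 5 libraries, 3 with S-961 and 2 without, came from virgin mice and were used to share an estimate of the spread and to ask whether the effect differed with parity. Nothing in the labels says whether a library was made from 1 mouse or from pooled islets, so that p-values measure the spread between libraries.

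Insulin acts on the islet as well as on liver, muscle and fat. The insulin receptor on β cells signals through the adaptor proteins Irs1 and Irs2, PI3 kinase and Akt. When insulin signalling is blocked in the whole animal, blood glucose rises, β cells are asked to secrete more, and rodent β cells can re-enter the cell cycle. A β cell under such demand makes proinsulin at a high rate in the endoplasmic reticulum, where misfolded protein is sensed by the unfolded protein response. Isolated islets also carry α, δ, PP, endothelial, stromal and immune cells, and fragments of the surrounding exocrine tissue, whose acinar cells are packed with mRNA for digestive enzymes.

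Total counts ran from 29866486 to 31832273 in the S-961 libraries, and were 26516117 and 22028507 in untreated replicates 1 and 2. Some features of the libraries touched the results. First, the library labelled multipara S-961 replicate 4 was closer to the virgin S-961 libraries than to its own group. Its chi-square statistic per gene, a measure of how far the counts of a pair of libraries differ, was 9.19 to 41.8 against the 3 virgin S-961 libraries and 53.4 to 87.9 against the other multipara S-961 libraries. The statistic did not always follow the parity labels in other pairs. Multipara untreated replicate 2 was at 28.6 and 25.6 against virgin untreated replicates 1 and 2, and at 39.6 against multipara untreated replicate 1. Those virgin replicates were at 10.8 against each other. Virgin S-961 replicates 1 and 2 were at 47.5 and 42.6 against multipara S-961 replicate 1. They were at 53.85 and 59.15 against virgin S-961 replicate 3. Second, multipara untreated replicate 1 carried far more immune and red cell mRNA than any other multipara library. In addition, digestive enzyme mRNA was high in every S-961 library and low in every untreated one. The labels name the same library kit for all samples and no date of preparation, so that treatment, preparation and carry-over of exocrine tissue cannot be told apart. Whether the parity labels of the S-961 libraries are as given was not tested, so that the multipara contrast is one of libraries labelled so. Results are given with and without S-961 replicate 4 and untreated replicate 1 where they changed.

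Of 17996 genes tested, 37.6% differed between S-961 and untreated multipara libraries at an adjusted p-value under 0.05, with 3272 genes higher (18.2%) and 3496 lower (19.4%) with S-961. Levels are in CPM, a gene's counts relative to the TMM-adjusted total of its library, and differences are log2 fold changes of S-961 over untreated. Values of all 4 S-961 libraries were above both untreated libraries for 24.5% of the genes and below both for 24.5%, so that separation of the groups by itself was common. Without S-961 replicate 4, 18.0% of the genes were called higher and 17.8% lower. With untreated replicate 1 left out, which leaves 1 untreated library assumed to vary like the other groups, 8.39% were called higher and 10.8% lower. With untreated replicate 2 left out in its place, 1990 genes were called higher. In a principal component analysis of the 500 most variable genes, the first component took 51.7% of the variance. Its scores were 38.7, 25.7, 34.3 and -0.68 in S-961 replicates 1 to 4 and -59.4 and -38.6 in untreated replicates 1 and 2. A fit with the mean acinar level as a covariate called 0 genes, with 1271 at an unadjusted p under 0.05 by edgeR. That level was 5.85 to 7.26 (mean log2 CPM) with S-961 and 2.04 and 2.07 without, so that it and the treatment cannot be told apart. For the first component the groups did not overlap, and the exact two-sided permutation p was 0.0667, the smallest that 4 against 2 libraries can give.

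The direction of the change followed the length of the transcript, taken from an annotated transcript of each gene that need not be the one expressed. Genes with a transcript under 500 nucleotides had a median log2 fold change of -1.76, and 40.3% of these 432 genes were called lower and 2.31% higher. The median rose with each length class to 0.51 for the 1881 genes with a transcript of at least 6000 nucleotides, of which 3.62% were called lower and 37.9% higher. The virgin libraries showed the same order, from -1.51 to 0.42. Each S-961 library showed it on its own against the mean of the untreated multipara libraries. The Spearman correlation of that difference with transcript length, across genes, was 0.226 to 0.46. For the difference of untreated replicate 1 against untreated replicate 2, the correlation with length was -0.00577. Genes are not independent replicates, and this is a description. Because the labels separate treatment and preparation no further, a fit in which each library's trend with length was removed is given beside the main one. It called 2753 genes higher (15.3%) and 3405 lower (18.9%), among them 2271 of the higher and 2548 of the lower genes of the main fit, while 4 genes were called in opposite directions.

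**Figure D1:**
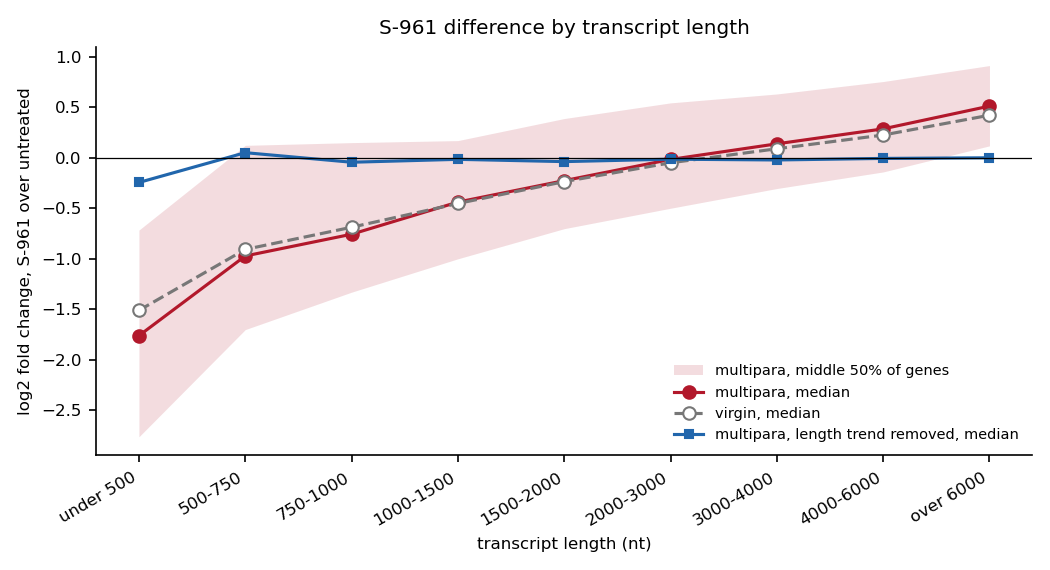
Median log2 fold change of S-961 over untreated (y axis) for genes grouped by transcript length in nucleotides (x axis), in multipara libraries (filled circles, with the middle 50% of genes shaded), in virgin libraries (open circles) and in multipara libraries after removal of the length trend (squares). The multipara median climbs from -1.76 in the shortest class to 0.51 in the longest, and the virgin median follows it.

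Acinar genes were the largest block of genes higher with S-961. Of 33 measured acinar genes, 31 rose and none fell, with a median log2 fold change of 5.18, against 0.03 over all genes tested. Their summed level was 19876, 17922, 13983 and 6848 CPM in S-961 replicates 1 to 4, and 319 and 280 CPM in the untreated libraries. Cel, the bile salt-activated lipase, was at 1198, 915, 747 and 473 CPM and at 5.003 and 8.01 CPM, a log2 fold change of 7.01 ± 0.76 (SE, adjusted p = 0.000157). Cpb1, a pancreatic carboxypeptidase, rose by 6.93 ± 0.73 (adjusted p = 0.000147), and Gp2, a zymogen granule membrane protein, by 6.71 ± 0.72 (adjusted p = 0.000151). The 10 genes with the largest increase among well-expressed genes were all of this kind, namely Amy2a1, Cel, Cpb1, Gp2, Amy2a5, Pnliprp2, Pnlip, Ctrl, Prss2 and Try4. Amy2a1 had no count in the untreated libraries and at least 459 CPM in each S-961 library, which is at least 2430-fold higher than a floor of 3 counts in the shallower untreated library. Amylase and trypsin genes are near-identical copies, so that reads may have been divided between them. Amy2a5, at 50.3 CPM in untreated replicate 1 and 0.82 CPM in replicate 2, was not called without the latter (adjusted p = 0.0939). The acinar transcription factor genes Ptf1a and Rbpjl were low. Ptf1a, which sets up acinar identity, was at 1.65, 0.84, 0.80 and 0.12 CPM with S-961 and at 0 and 0.19 CPM without (adjusted p = 0.0849), and was called without S-961 replicate 4 (adjusted p = 0.0409). Its partner Rbpjl was at 2.93 to 4.85 CPM with S-961 and 0.69 and 1.03 CPM without (log2 fold change 2.13 ± 0.69, adjusted p = 0.0323), a call lost without S-961 replicate 1 (adjusted p = 0.0671), untreated replicate 1 (adjusted p = 0.107) or untreated replicate 2 (adjusted p = 0.163). Bhlha15, a secretory cell factor also known as Mist1, was not low and rose by 1.66 ± 0.34. It was at 103, 104, 46.4 and 125 CPM in S-961 replicates 1 to 4 and at 25.8 and 34.3 CPM without. Its highest level was in S-961 replicate 4, the S-961 library with the lowest acinar sum. Among the 7 Reg genes, which encode secreted lectins of the exocrine pancreas, 2 rose, and Reg1 went from 5.05 and 6.18 CPM to 279, 291, 297 and 91.4 CPM. Between 1 and 4 Reg genes rose when 1 library was left out, the fewest without untreated replicate 1 and the most without S-961 replicate 4. One listed member that was not called, Syt1, is a synaptic vesicle protein and no acinar marker.

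The marker lists of other cells did not move as one block. Of 12 duct genes 4 rose and 1 fell, and of 13 stromal genes 4 rose and none fell (Col1a1 by 1.89, Col3a1 by 1.35). Of 12 endothelial genes none rose and 2 fell. For comparison, 18.2% of all genes were called higher and 19.4% lower. Without either untreated library 2 duct genes rose. The stromal count rested on the untreated libraries, since 7 rose without untreated replicate 1 and 1 rose and 1 fell without untreated replicate 2. Macrophage and lymphocyte genes were lower in number, with 9 of 13 and 9 of 12 called lower, and all 5 red cell genes fell. These calls rested on untreated replicate 1. Lyz2, the macrophage lysozyme, was at 12.9, 14.96, 41.4 and 33.5 CPM with S-961 and at 508 and 43.1 CPM in untreated replicates 1 and 2. Cd3d, part of the T cell receptor complex, was at 0.11 to 0.28 CPM with S-961 and at 20.8 and 0.32 CPM without. With that library left out, the counts were 2 macrophage, 0 lymphocyte and 2 red cell genes lower, and the median of the lymphocyte genes turned from -3.45 to 0.51. Without S-961 replicate 1, 5 lymphocyte genes fell. The summed lymphocyte level of 1168 CPM in untreated replicate 1 compared with 48.5 CPM in untreated replicate 2 and 119 to 261 CPM with S-961. In bulk libraries, fewer cells of a type and less RNA per cell cannot be told apart.

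Housekeeping genes were set beside these lists. Of 19, 1 rose, 4 fell and 14 were not called, with a median of -0.10, and their summed level was 4728 to 6103 CPM with S-961 and 7966 and 6667 CPM without. The genes that fell were B2m, Ppia, Rpl13a and Gusb. B2m, the light chain of class I histocompatibility antigens, was at 808 CPM in untreated replicate 1 and 130 CPM in replicate 2, and was not called without the former (adjusted p = 0.238). Rpl13a, a ribosomal protein gene with a transcript of 1047 nucleotides, fell by 1.76 on the log2 scale. Tbp, with a transcript of 12790 nucleotides, rose by 0.61, was at 0.04 once the length trend was removed, and was not called without untreated replicate 1 (adjusted p = 0.0779). Gapdh was at 555, 693, 422 and 594 CPM with S-961 and at 751 and 653 CPM without, and the groups overlapped (log2 fold change -0.31 ± 0.18, adjusted p = 0.188). Scaling the libraries to the housekeeping list moved the median of all genes to 0.30 and the calls to 4387 higher and 2006 lower. The directions of small changes are relative to the TMM scale.

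**Figure D2:**
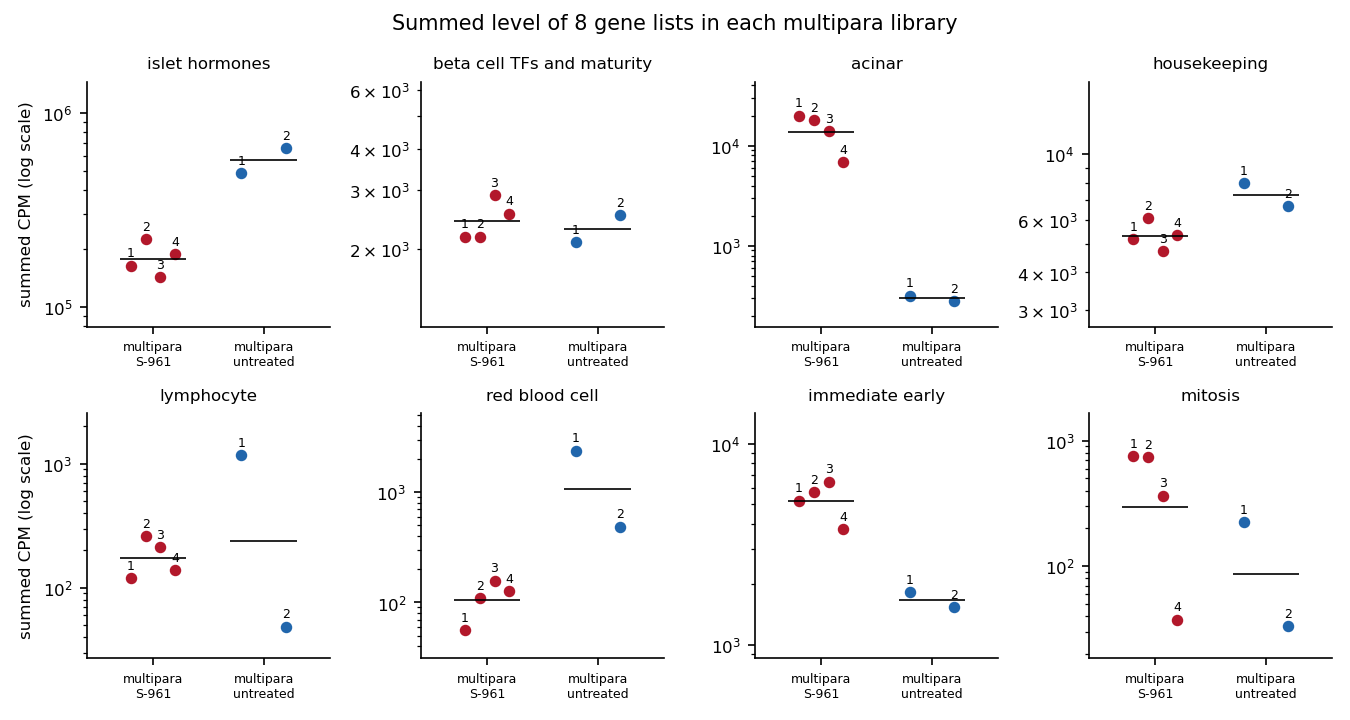
Summed CPM (y axis, log scale) of 8 gene lists in each multipara library. Points are libraries with their replicate numbers, red with S-961 and blue untreated, and the line is the geometric mean of the group. Acinar and immediate early sums with S-961 lie above both untreated libraries, islet hormone and housekeeping sums lie below, and the lymphocyte and mitosis sums overlap, with untreated replicate 1 highest for lymphocyte genes and S-961 replicate 4 at 37.5 CPM for mitosis.

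Hormone mRNAs made up much less of the islet transcriptome with S-961. The insulin genes Ins1 and Ins2 together took 13.3%, 17.3%, 13.2% and 16.4% of all counts in S-961 replicates 1 to 4 and 35.9% and 41.4% in the untreated libraries. The means were 15.1% ± 2.1 (SD, n = 4) and 38.7% ± 3.89 (SD, n = 2), with an exact two-sided permutation p of 0.0667, the smallest possible. Ins2 (chr7:142678656-142743381, GRCm38) was at 78320, 115100, 68760 and 100200 CPM with S-961 and at 303400 and 417700 CPM without, a log2 fold change of -1.99 ± 0.24 (adjusted p = 0.000237). Ins1 (chr19:52264297-52265476) changed by -1.82 ± 0.20 (adjusted p = 0.00018). All S-961 libraries were below both untreated libraries for each gene. Of the 8 islet hormone genes 6 fell and none rose, with a median of -1.18. Pancreatic polypeptide, Ppy, fell by 1.67, glucagon, Gcg, by 0.68 and peptide YY, Pyy, by 0.67 on the log2 scale. Amylin, encoded by Iapp and released with insulin, was at 24290, 32990, 16300 and 23560 CPM with S-961 and at 28310 and 35570 CPM without, and the groups overlapped (adjusted p = 0.228). Hormone transcripts are short, with a median of 865 nucleotides. With the length trend removed, Ins1 was at -1.24 and Ins2 at -1.31 (adjusted p = 0.000331 and 0.000444), Gcg (adjusted p = 0.616) and Ppy (adjusted p = 0.23) were not called, and Pyy was called higher at 0.48. Gcg was also not called without untreated replicate 2 (adjusted p = 0.273), nor Pyy without untreated replicate 1 (adjusted p = 0.0593) or 2 (adjusted p = 0.0994). Ins1 and Ins2 are closely related copies that can share reads.

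Of 16 genes of prohormone processing and the granule 8 rose, 2 fell and 6 were not called, and their summed level overlapped between the groups. Beside this list and the next stand the shares over all genes, 18.2% higher and 19.4% lower. Pcsk1, the convertase that cuts proinsulin first, was at 973, 999, 641 and 833 CPM with S-961 and at 238 and 359 CPM without, a log2 fold change of 1.53 ± 0.23 (adjusted p = 0.000744). Vgf, a granule protein of regulated secretion, rose by 2.31 ± 0.41, and G6pc2, the islet glucose-6-phosphatase, by 1.55 ± 0.33. Chga, a structural granule protein, fell by 0.84. Of 16 measured β cell transcription factors and maturity genes 6 rose and 1 fell. Their summed level overlapped too, at 2175 to 2896 CPM with S-961 and 2097 and 2523 CPM without. Neurod1, an islet transcription factor, was at 156, 155, 183 and 180 CPM with S-961 and at 64.1 and 85.7 CPM without (log2 fold change 1.17 ± 0.16). Mafa, an activator of insulin transcription, rose by 0.90 ± 0.25 and Nkx6-1 by 0.67 ± 0.18. Ucn3, a peptide of mature β cells, fell by 1.12 ± 0.17. Pdx1 was not called (-0.41 ± 0.15, adjusted p = 0.0533). With untreated replicate 1 left out, the counts dropped to 2 higher and 1 lower in both lists, and Mafa (adjusted p = 0.131), Nkx6-1 (adjusted p = 0.145) and G6pc2 (adjusted p = 0.0517) were no longer called. Pdx1 was called lower without S-961 replicate 3 (adjusted p = 0.023).

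Several genes of the glucose sensing and channel list were lower and others were higher. Trpm5, a calcium-activated cation channel of the β cell (chr7:143069153-143094642), was at 55.4, 59.4, 95.0 and 110 CPM with S-961 and at 290 and 386 CPM without, a log2 fold change of -2.08 ± 0.25 (adjusted p = 0.000252). Sstr3, a somatostatin receptor, fell by 1.46 ± 0.13 (adjusted p = 8.12e-05). Kcnj11, the pore subunit of the KATP channel, fell by 0.67 ± 0.15. Glp1r, the receptor for the incretin GLP-1, was at 311, 285, 540 and 584 CPM with S-961 and at 635 and 711 CPM without, which did not pass the test (adjusted p = 0.0781) but did without S-961 replicate 3 (adjusted p = 0.0392) or 4 (adjusted p = 0.0282). Cacnb2 rose by 0.60 ± 0.17 and Adra2a by 0.48 ± 0.17. Among 16 genes of glucose sensing and channels 3 rose and 6 fell, where 18.2% of all genes rose and 19.4% fell. These transcripts are long, and with the length trend removed 2 were called higher and 8 lower. Without untreated replicate 1 no gene of this list rose and 6 fell, and without untreated replicate 2, 2 rose and 3 fell, with Kcnj11 no longer called (adjusted p = 0.0787). Of 16 exocytosis genes 3 rose and 4 fell, which turned to 7 higher and 0 lower with housekeeping scaling. Examples are Unc13a, a vesicle priming factor, at 1.25 ± 0.20 and Cplx2, a complexin, at -1.02 ± 0.21. Leaving out untreated replicate 1, 1 exocytosis gene rose and 3 fell, and without untreated replicate 2, 3 rose and 1 fell.

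The mRNA of the receptor that S-961 blocks did not pass the test. Insr (chr8:3122061-3279617) was at 50.2, 37.2, 65.7 and 62.2 CPM with S-961 and at 50.3 and 62.8 CPM without, a log2 fold change of -0.07 ± 0.21 (adjusted p = 0.82), and its sign turned when S-961 replicate 2 (0.10) or untreated replicate 2 (0.11) was left out. With the length trend removed this long transcript was called lower, at -0.62 (adjusted p = 0.00584). The adaptor genes rose. Irs2 (chr8:10984681-11008458) was at 224, 148, 187 and 112 CPM with S-961 and at 27.5 and 25.2 CPM without, a log2 fold change of 2.67 ± 0.28 (adjusted p = 0.000149) and of 2.25 with the length trend removed. Irs1 was at 15.9, 8.53, 13.7 and 14.1 CPM against 2.95 and 3.85 CPM (1.95 ± 0.36, adjusted p = 0.00211). In both genes the lowest S-961 library was over 2 times the highest untreated one. Pdpk1, the kinase that activates Akt, rose by 1.04 ± 0.17 and Pik3r1, the regulatory subunit of PI3 kinase, by 0.74 ± 0.10, although Pik3r1 was not called with the length trend removed (0.29, adjusted p = 0.105). Akt2 fell by 0.57 ± 0.15, a call lost without untreated replicate 1 (adjusted p = 0.0607) or 2 (adjusted p = 0.0805). Among 20 genes of insulin and IGF signalling 5 rose and 3 fell, close to the 37.6% called in either direction over all genes. With the length trend removed 4 of the 20 were called higher and 10 lower. Only 1 gene of this list fell when either untreated library was left out.

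Immediate early genes, which are switched on within minutes of a calcium, cAMP or growth factor signal, rose as a group. Of 25 measured, 19 rose and none fell, where 18.2% of all genes rose and 19.4% fell. The median log2 fold change of the list was 1.45. Its summed level was 5225, 5759, 6487 and 3763 CPM with S-961 and 1829 and 1538 CPM without. Nr4a1 (chr15:101254269-101274795), an orphan nuclear receptor, was at 345, 300, 277 and 514 CPM with S-961 and at 15.2 and 19.4 CPM without, a log2 fold change of 4.38 ± 0.30 (adjusted p = 2.74e-05). Npas4, a calcium-induced transcription factor, was at 82.3, 60.8, 75.4 and 95.9 CPM against 7.73 and 6.49 CPM (3.46 ± 0.20, adjusted p = 2.12e-05). Fosb was at 909, 922, 1141 and 362 CPM against 97.5 and 83.5 CPM, and Fos at 1226, 1381, 1387 and 826 CPM against 421 and 386 CPM. Both AP-1 genes were lowest in replicate 4 among the S-961 libraries and higher there than in either untreated library. Jund rose by 2.31 and the phosphatase gene Dusp1 by 1.76. With the length trend removed 20 genes of the list rose and none fell, and between 13 and 20 rose when any 1 of the 6 libraries was left out, the lowest without untreated replicate 2. Of 18 circadian clock genes 5 rose and 2 fell, close to the 37.6% called in either direction over all genes, with Per2 at 1.52, Per1 at 1.10, Clock at 0.99 and Cry2 at -1.03. Without untreated replicate 2, 3 rose and 1 fell, and Cry2 was not called (adjusted p = 0.0534). The hour of collection of each library is not given in the labels, so that its part was not tested.

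Among genes called, arms of the response to protein stress moved mostly in opposite directions. Of 31 measured genes of ER chaperones and the unfolded protein response 13 rose and 1 fell, with a median of 0.58. The shares over all genes were 18.2% higher and 19.4% lower. Syvn1, the ubiquitin ligase of ER-associated degradation, was at 220, 188, 97.4 and 200 CPM with S-961 and at 56.1 and 51.9 CPM without, a log2 fold change of 1.71 ± 0.28 (adjusted p = 0.00111). Its partner Sel1l rose by 1.02 ± 0.15, the cochaperone Dnajb9 by 1.88 ± 0.34, the stress sensor PERK, encoded by Eif2ak3, by 1.13 ± 0.17 and the chaperone Hyou1 by 1.07 ± 0.28. Hspa5, the main ER chaperone BiP, was at 2818, 3526, 1273 and 2216 CPM with S-961 and at 1226 and 1495 CPM without, and was not called (adjusted p = 0.0696), although it was without S-961 replicate 3 (adjusted p = 0.00523). S-961 replicate 3 was the lowest of its group for Syvn1, Dnajb9, Hyou1 and Hspa5. Secretory genes are also high in acinar cells, whose part was not tested. The summed level of the ER list was 18056, 19979, 11308 and 16404 CPM in S-961 replicates 1 to 4. It was 11207 and 13492 CPM in untreated replicates 1 and 2, and the groups overlapped. Acinar genes summed to 19876, 17922, 13983 and 6848 CPM in the same S-961 libraries. The number of ER genes called higher was 5 without untreated replicate 1, 7 without S-961 replicate 1 and 20 without S-961 replicate 3, and Hyou1 was not called without untreated replicate 1 (adjusted p = 0.102).

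In the integrated stress response, the Atf4 programme downstream of eIF2α phosphorylation, more mRNAs were called lower than higher. The phosphorylation and Atf4 protein were not measured here. Of 18 genes 9 fell, 2 rose and 7 were not called, with a median of -0.65. Atf4 itself (-0.43 ± 0.21, adjusted p = 0.128) and Asns (-0.34 ± 0.18, adjusted p = 0.157) were among those not called. Over all genes 18.2% were called higher and 19.4% lower, the shares to set beside this list and the heat shock list. Ddit3 (chr10:127290774-127296288), which encodes CHOP, was at 22.2, 28.6, 24.3 and 18.1 CPM with S-961 and at 86.5 and 103 CPM without, a log2 fold change of -2.02 ± 0.17 (adjusted p = 7.88e-05). Chac1, a glutathione-degrading enzyme, was at 8.40, 5.38, 12.6 and 5.20 CPM against 66.4 and 87.7 CPM (-3.28 ± 0.31, adjusted p = 9.60e-05). Trib3, a pseudokinase that binds Akt, was at 2.79, 1.72, 5.41 and 1.03 CPM against 25.6 and 34.1 CPM (-3.44 ± 0.49, adjusted p = 0.000541). For these genes the highest S-961 library stood well under the lowest untreated one. Atf5 fell by 1.79 and Sesn2 by 1.29. Atf3 and Ppp1r15a, the latter the phosphatase subunit that reverses eIF2α phosphorylation, rose by 2.23 ± 0.38 and 0.81 ± 0.16. Between 7 and 11 genes of the list fell when any 1 library was left out, and 8 fell with the length trend removed. Among 12 heat shock genes 2 rose and 1 fell, and none rose without S-961 replicate 1, untreated replicate 1 or untreated replicate 2.

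Promoters of 3 of these genes are shown as 300 bases around the start site because Trib3 and Chac1 fell while Syvn1 rose. Promoters of 2 immediate early genes, Nr4a1 and Fos, were searched for another motif, held no match and were left out after that, so that the presence of a match among those printed is fixed by the choice. Sequences are from RefSeq, build GRCm38.p6, written along the strand of the gene. Capitals in Trib3 (chr2:152344011-152344310, minus strand) and Chac1 (chr2:119350992-119351291, plus strand) mark a match on either strand to TGATGNAA, the core of the element bound by Atf4 with a C/EBP partner, which 3.97% of 32851 promoters of this length contain. Capitals in Syvn1 (chr19:6046326-6046625, plus strand) mark a match to the ER stress response element, CCAAT followed after 9 bases by CCACG, which 0.119% of them contain. A match is a description of the letters and does not show binding.
Trib3: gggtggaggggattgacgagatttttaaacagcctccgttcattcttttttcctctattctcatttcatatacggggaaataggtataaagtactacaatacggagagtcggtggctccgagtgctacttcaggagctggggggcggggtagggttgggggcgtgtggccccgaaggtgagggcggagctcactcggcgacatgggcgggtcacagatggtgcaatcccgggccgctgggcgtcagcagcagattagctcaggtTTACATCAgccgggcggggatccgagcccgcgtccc
Chac1: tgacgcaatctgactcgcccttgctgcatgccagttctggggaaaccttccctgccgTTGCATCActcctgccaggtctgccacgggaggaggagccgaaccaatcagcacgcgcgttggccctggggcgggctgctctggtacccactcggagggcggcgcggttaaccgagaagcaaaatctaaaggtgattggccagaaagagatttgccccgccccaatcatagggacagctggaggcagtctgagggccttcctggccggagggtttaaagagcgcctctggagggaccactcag
Syvn1: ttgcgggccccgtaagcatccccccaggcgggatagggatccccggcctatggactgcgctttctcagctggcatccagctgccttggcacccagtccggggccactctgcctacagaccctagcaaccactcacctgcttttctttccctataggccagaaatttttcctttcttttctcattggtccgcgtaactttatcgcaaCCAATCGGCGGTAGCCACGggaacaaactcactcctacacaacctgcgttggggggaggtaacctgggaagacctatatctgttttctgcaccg

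**Figure D3:**
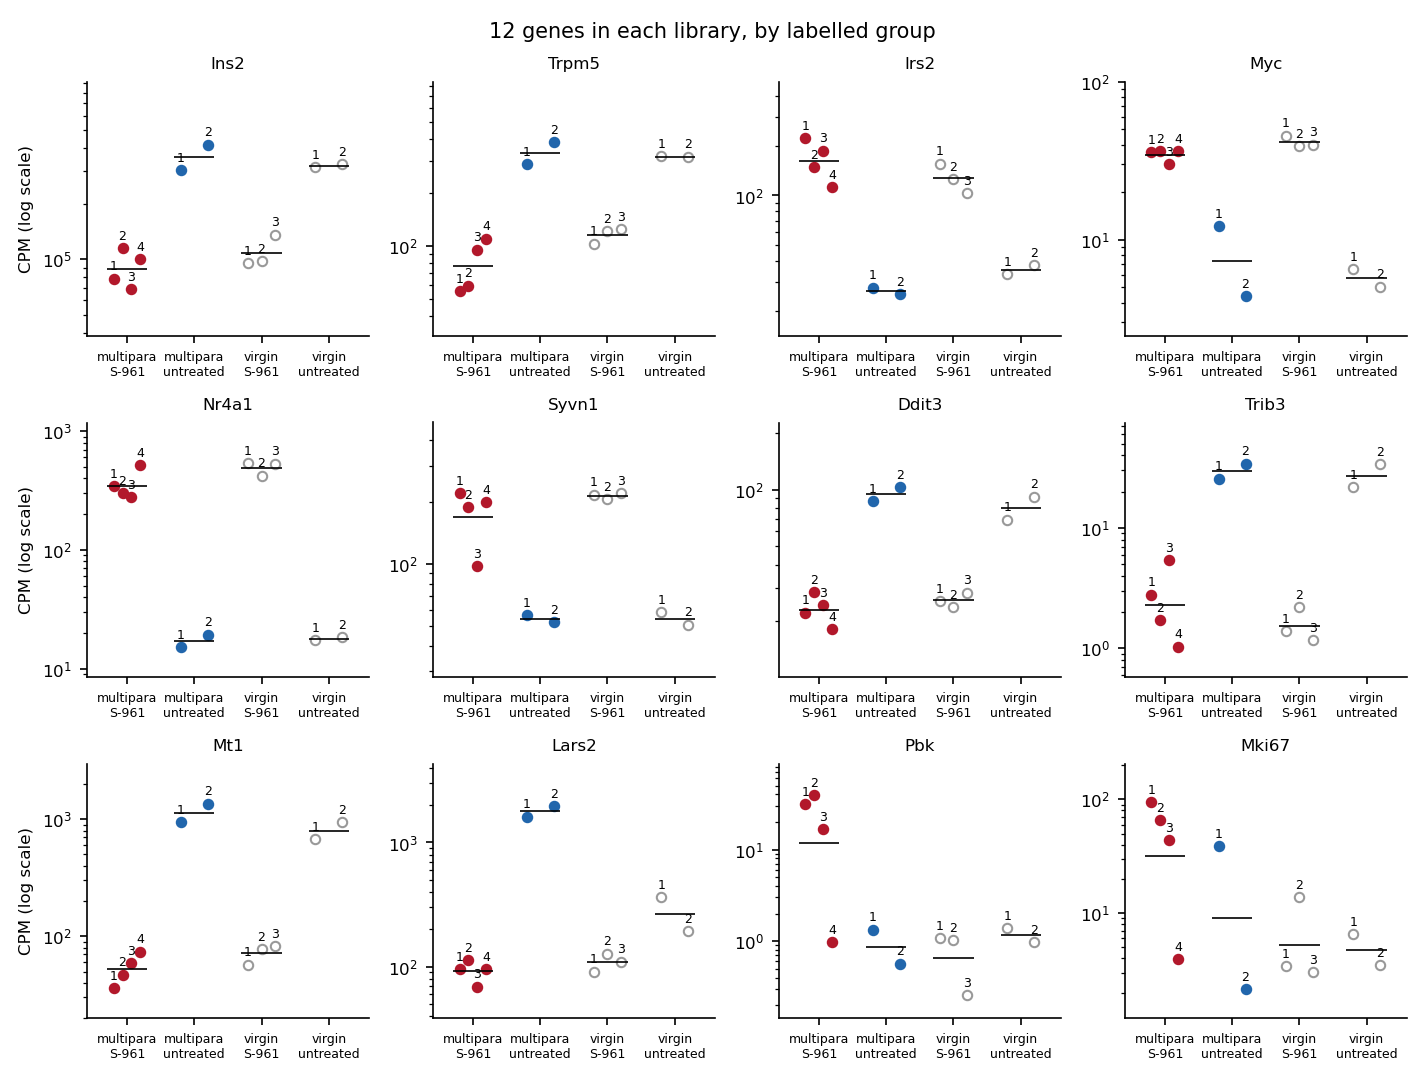
CPM (y axis, log scale) of 12 genes in each library by labelled group (x axis), with filled points for multipara and open points for virgin libraries, replicate numbers beside the points and a line at the geometric mean of the group. Irs2, Myc, Nr4a1 and Syvn1 are higher and Ins2, Trpm5, Ddit3, Trib3, Mt1 and Lars2 lower in every multipara S-961 library than in both untreated ones, and Pbk and Mki67 split the multipara S-961 libraries into replicates 1 to 3 and replicate 4.

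Of 15 G1 cyclins, kinases and their regulators 7 rose, 1 fell and 7 were not called, with a median of 1.16. Myc (chr15:61985391-61990374) was at 35.7, 36.4, 30.1 and 36.2 CPM with S-961 and at 12.2 and 4.41 CPM without, a log2 fold change of 2.04 ± 0.32 (adjusted p = 0.000877). Cyclin D1, Ccnd1, was at 224, 222, 119 and 178 CPM against 87.1 and 94.1 CPM (1.03 ± 0.24), and cyclin E2, Ccne2, rose by 1.93 ± 0.40. E2f3 rose by 1.17 ± 0.27. The cyclin-dependent kinase inhibitor gene Cdkn2b, which encodes p15, was at 2.93, 4.07, 7.39 and 3.49 CPM with S-961 and at 15.1 and 13.7 CPM without (-1.69 ± 0.31, adjusted p = 0.00221). Cdkn2c, which encodes p18, rose by 1.19 ± 0.37 and the retinoblastoma gene Rb1 by 0.90 ± 0.18. Of 12 inhibitors 3 rose and 1 fell, close to the 37.6% called in either direction over all genes. The G1 genes called higher numbered 4 without untreated replicate 2, and the inhibitors called higher 1. Without untreated replicate 1, Ccnd1 (adjusted p = 0.0608), E2f3 (adjusted p = 0.0539) and Cdkn2c (adjusted p = 0.115) were not called. Cdkn2c was also lost without untreated replicate 2 (adjusted p = 0.128) and without S-961 replicate 1 (adjusted p = 0.06).

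Genes of DNA replication and mitosis did not move in all S-961 libraries alike. Pbk, a mitotic kinase (chr14:65805837-65817822), was at 31.5, 39.5 and 16.7 CPM in S-961 replicates 1 to 3, at 0.98 CPM in replicate 4 and at 1.34 and 0.57 CPM without S-961. Mki67, the gene of the proliferation antigen Ki-67, was at 93.9, 65.5 and 43.5 CPM in replicates 1 to 3, at 3.93 CPM in replicate 4 and at 38.6 and 2.14 CPM without (log2 fold change 1.33 ± 1.15, adjusted p = 0.384). The spread within both groups was as wide as the difference between them. The summed mitosis list showed the same split, with 755, 739, 365 and 37.5 CPM in S-961 replicates 1 to 4 and 224 and 33.3 CPM in the untreated libraries. In the virgin libraries it was 31.4 to 64.8 CPM with S-961 and 49.8 to 61.0 CPM without, so that multipara S-961 replicates 1 to 3 stood above every library labelled virgin and replicate 4 among them. Cenpi, a centromere protein gene, was at 6.97, 7.48 and 4.94 CPM in replicates 1 to 3, at 0.15 CPM in replicate 4 and at 0.10 to 0.33 CPM in the virgin S-961 libraries. This split runs along the labels in doubt. Of 36 mitosis genes 3 rose (Pbk by 4.49 ± 1.23, Anln by 3.40 ± 0.95 and Cenpi by 4.04 ± 1.31) and none fell, and of 26 DNA replication genes 2 rose, Fen1 at 2.09 ± 0.62 among them, and Gins2 fell by 0.66. In both lists the share called was below the 37.6% over all genes. With housekeeping scaling 8 mitosis and 9 DNA replication genes were called higher. Without S-961 replicate 4, 23 mitosis and 14 DNA replication genes rose. Without untreated replicate 2 no gene of either list was called. Without untreated replicate 1 the median of the mitosis list was 4.5, and 3 genes were called, while Pbk (adjusted p = 0.0747), Cenpi (adjusted p = 0.0773) and Fen1 (adjusted p = 0.0632) were not. Cenpi also lost its call without S-961 replicate 1 (adjusted p = 0.0638) or 2 (adjusted p = 0.0504). Cenpi, Hmmr and other members of these lists were named by the study from its own comparison of S-961 libraries by parity, so that they are not independent evidence, and their direction here holds only for the libraries as labelled.

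Metallothionein genes were among the 3 largest decreases of well-expressed genes. Mt1, a small protein that binds zinc and copper, was at 35.8, 47.0, 59.2 and 73.9 CPM with S-961 and at 941 and 1360 CPM without, a log2 fold change of -4.41 ± 0.28 (adjusted p = 2.16e-05). Mt2 was at 21.4, 24.6, 27.8 and 34.6 CPM against 521 and 781 CPM (-4.58 ± 0.26, adjusted p = 2.12e-05). The transcripts are short, 549 and 511 nucleotides, and with the length trend removed the changes were -3.23 and -3.34. Both genes are also induced by glucocorticoids and belong to a list of 12 such targets. Of that list 6 rose and 5 fell, Mt1 and Mt2 among the latter. The shares over all genes were 18.2% higher and 19.4% lower. Fkbp5 fell by 1.75 ± 0.23 and Tsc22d3, which encodes GILZ, by 1.60 ± 0.27, while Per1 rose by 1.10 ± 0.20. Without untreated replicate 1, 2 of these targets rose and 5 fell, and without untreated replicate 2, 3 rose and 4 fell. The remaining genes among the 10 largest decreases were Tgtp1, Tgtp2 and Cd52, of immune cells, Hba-a2, Hbb-bs and Hbb-bt, of red cells, Lars2, and the small nuclear RNA gene Rn7sk, which poly(A) selection should leave out and which was at 1.13 to 2.16 CPM with S-961 and 21.5 and 43.6 CPM without. The immune and red cell genes were highest in untreated replicate 1. Tgtp1 was at 92.4 CPM there and at 6.11 CPM in untreated replicate 2. Hba-a2 was at 1066 and 227 CPM. Without that library Cd52 (adjusted p = 0.179), Tgtp2 (adjusted p = 0.0597) and Hbb-bt (adjusted p = 0.0848) were not called. Copies such as Tgtp1 and Tgtp2 can share reads, so that their division is uncertain.

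The promoters of both metallothionein genes are shown because these genes were among the 3 largest decreases. Capitals mark matches on either strand to TGCACNC or TGCGCNC, the core of the metal response element bound by Mtf1, with 3 matches in Mt1 (chr8:94178839-94179138, plus strand) and 4 in Mt2 (chr8:94172368-94172667, plus strand). Of all promoters of this length 25.7% contain at least 1 match.
Mt1: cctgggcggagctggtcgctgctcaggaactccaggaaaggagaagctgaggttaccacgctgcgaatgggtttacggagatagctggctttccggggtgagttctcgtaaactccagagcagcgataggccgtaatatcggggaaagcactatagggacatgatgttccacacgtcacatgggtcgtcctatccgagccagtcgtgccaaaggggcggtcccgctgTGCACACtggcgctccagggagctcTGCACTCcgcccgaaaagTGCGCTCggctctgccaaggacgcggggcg
Mt2: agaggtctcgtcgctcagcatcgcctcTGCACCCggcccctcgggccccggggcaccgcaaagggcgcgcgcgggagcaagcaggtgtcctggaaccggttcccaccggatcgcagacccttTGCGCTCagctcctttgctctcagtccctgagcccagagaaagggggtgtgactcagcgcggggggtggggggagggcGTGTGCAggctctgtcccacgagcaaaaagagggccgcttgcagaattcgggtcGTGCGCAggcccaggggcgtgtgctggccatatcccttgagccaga

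Genes of protein synthesis and respiration were lower, and their transcripts are short. Of 86 cytosolic ribosomal protein genes 82 fell and none rose, with a median of -1.63 and a median transcript of 865.5 nucleotides. The summed level was 14504 to 23008 CPM with S-961 and 50355 and 48629 CPM without. Rps27 was at 113, 154, 108 and 122 CPM against 916 and 840 CPM, a log2 fold change of -2.82 ± 0.19, which was -1.22 with the length trend removed. Of 82 nuclear genes of the respiratory chain 65 fell and 1 rose, with a median of -1.22. Atp5k, a subunit of ATP synthase with a transcript of 371 nucleotides, was at 17.1, 27.6, 13.8 and 16.2 CPM against 124 and 137 CPM (-2.81 ± 0.24). With the length trend removed, 72 ribosomal genes (median -0.87) and 42 respiratory chain genes (median -0.40) were still called lower, and 4 respiratory chain genes were called higher. Genes of the mitochondrial genome went in both directions. Their lengths here are those annotated for each gene, which need not be the length of the mRNA. The gene mt-Nd3, with 348 nucleotides, fell by 2.75 and mt-Atp8, with 204 nucleotides, by 1.95, whereas mt-Nd4, with 1378 nucleotides, rose by 0.59, a call lost without untreated replicate 1 (adjusted p = 0.18). Of the 13 genes 2 rose and 5 fell, and with the length trend removed 7 were called higher and 1 lower.

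Metabolic genes changed singly. Txnip, a thioredoxin inhibitor induced by glucose, was at 1051, 1116, 687 and 982 CPM with S-961 and at 426 and 439 CPM without (1.15 ± 0.20, adjusted p = 0.00148). Khk, ketohexokinase, was at 7.92, 11.5, 12.9 and 12.1 CPM against 41.2 and 47.2 CPM (-1.99 ± 0.18, adjusted p = 7.88e-05). The glucose response list held 2 genes that rose and 4 that fell of 16, the glycolysis list 1 and 3 of 17, and the list of genes that mature β cells keep low 2 and 0 of 22. In each of these lists, and in the sterol list below, the share called was close to or under the 37.6% over all genes. Of 24 genes of sterol synthesis 5 rose and 1 fell, with squalene epoxidase, Sqle, at 0.90 ± 0.19 and the HMG-CoA synthase gene Hmgcs1 at 0.60 ± 0.11. The α cell list held 4 genes that rose and 1 that fell of 10, and the δ and PP cell list 1 and 3 of 7. Beside these and the pregnancy list below stand 18.2% called higher and 19.4% lower over all genes. When untreated replicate 1 was left out, 2 sterol, 1 α cell and 1 pregnancy gene rose, and without untreated replicate 2, 6 of the genes that mature β cells keep low and 6 glycolysis genes fell. Of 18 pregnancy and lactogen genes 5 rose and 4 fell. The prolactin receptor gene Prlr was at 553, 486, 336 and 334 CPM with S-961 and at 153 and 222 CPM without (1.19 ± 0.26, adjusted p = 0.00561), a call lost without untreated replicate 1 (adjusted p = 0.0693), and Socs3, a feedback inhibitor of cytokine receptors, rose by 2.05 ± 0.42. Tnfrsf11b, which encodes osteoprotegerin, was at 12.8, 15.8, 9.03 and 46.4 CPM against 4.87 and 5.80 CPM, and was not called without untreated replicate 1 (adjusted p = 0.131) or 2 (adjusted p = 0.0853). Lars2, a mitochondrial leucyl-tRNA synthetase (chr9:123366927-123462666), was at 95.3, 113, 69.1 and 95.8 CPM with S-961 and at 1614 and 1966 CPM without (-4.26 ± 0.26, adjusted p = 2.12e-05). Lrrc55, a subunit of BK potassium channels (chr2:85162334-85197197), was at 0.60, 0.32, 1.96 and 4.43 CPM against 24.9 and 22.8 CPM (-3.71 ± 0.70). The study itself named both Lars2 and Lrrc55, so that they are not independent evidence of a direction.

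**Figure D4:**
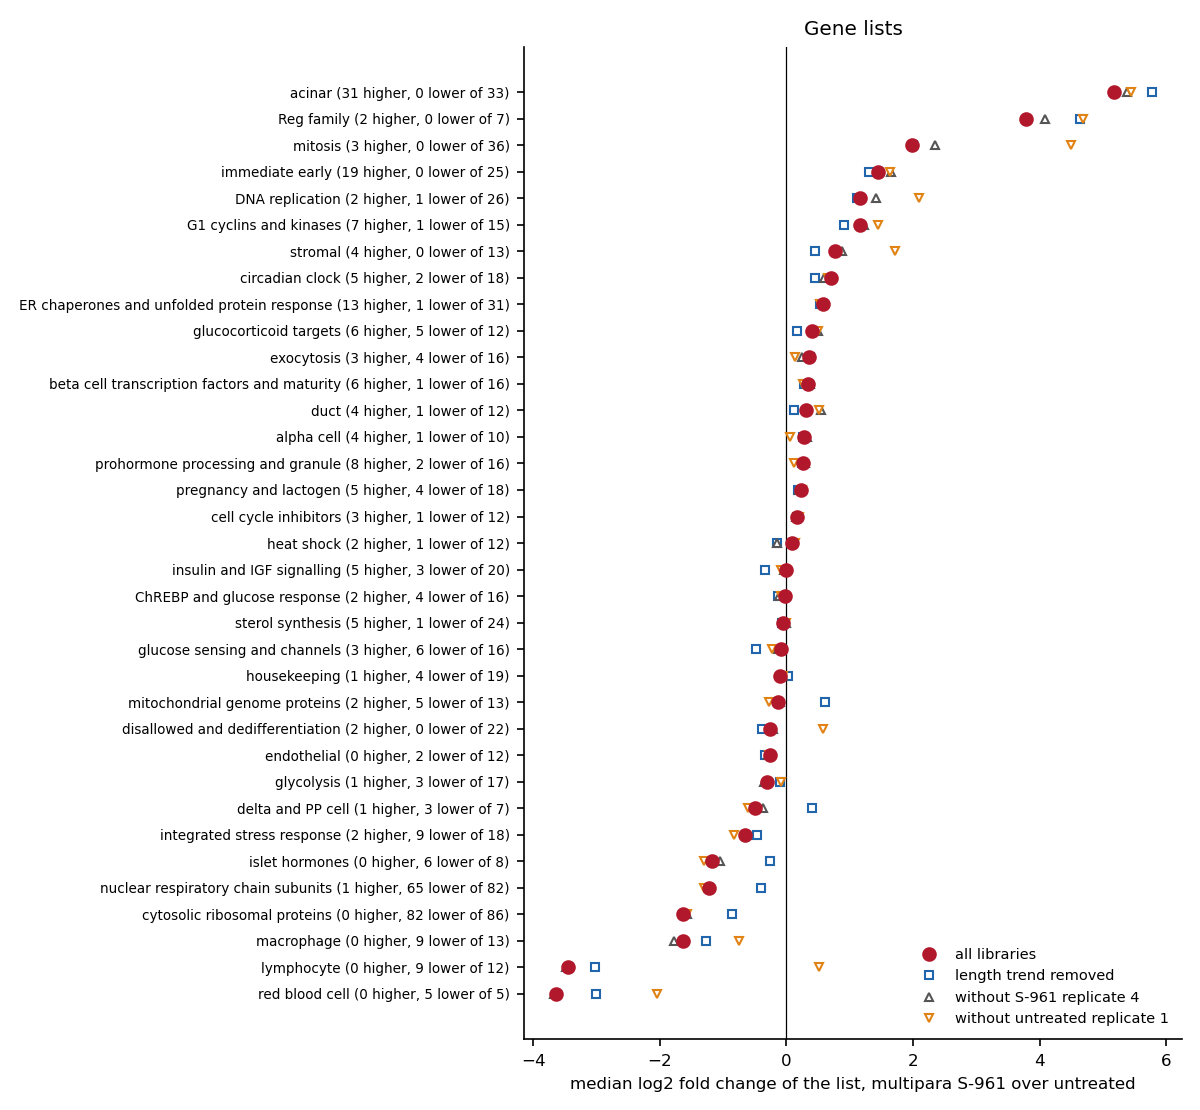
Median log2 fold change of S-961 over untreated (x axis) for each gene list (y axis, with the number of members called higher and lower of those tested), in all libraries (red circles), with the length trend removed (squares), without S-961 replicate 4 (upward triangles) and without untreated replicate 1 (downward triangles). Acinar and immediate early medians stay at or above 1.31 in all 4 fits, ribosomal and respiratory chain medians are nearest to 0 with the length trend removed, and the lymphocyte median turns from -3.45 to 0.51 without untreated replicate 1.

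The same contrast in the virgin libraries, which shares no library with the multipara one, called 3390 genes higher and 3172 lower. The difference between the effects was called for 0 genes by edgeR's interaction test, with 1179 genes at an unadjusted p under 0.05, and for 85 genes by DESeq2, with 1295 at an unadjusted p under 0.05. Irs2 changed by 1.86, Nr4a1 by 4.803, Ddit3 by -1.64, Syvn1 by 1.98 and Ins2 by -1.55 in virgin libraries. Among 111 genes checked with both tools, DESeq2 called 7 that edgeR did not, namely Lars2, Lrrc55, Atf3, Gcg, Hba-a2, Hbb-bs and Hbb-bt. Lars2 changed by -1.35 in virgin libraries, with an adjusted p of the difference of 0.222 by edgeR and 6.64e-11 by DESeq2. Lrrc55 changed by 3.06 there, with 0.372 by edgeR and 0.000453 by DESeq2, and Atf3 by 0.05, with 0.409 and 0.00998. Differences between parities rest on the parity labels of the S-961 libraries, which are in doubt. Since replicate 4 stood close to the virgin S-961 libraries, all 7 S-961 libraries were also compared with all 4 untreated libraries without use of the parity label, which called 4705 genes higher and 4677 lower. In that comparison 20 immediate early genes rose and none fell, 13 integrated stress response genes fell and 3 rose, 19 ER genes rose and 2 fell, and 2 mitosis genes rose.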

How the data were processed

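Islet RNA libraries had been made with a TruSeq stranded mRNA kit. The authors aligned reads with STAR to GRCm38/mm10 and deposited estimated counts per gene from RSEM, as the labels and methods state (versions not given in the sources used here). The 4449 to 5162 genes per library with a value that was not whole were rounded. Of 55536 genes, 17996 passed edgeR's filter (minimum count 10, total 15). The main test was edgeR 4.0.16's quasi-likelihood test with TMM scaling and Benjamini-Hochberg adjustment at 0.05, in R 4.3.3, fitted to all 11 libraries as 4 groups, with the contrast of multipara S-961 over multipara untreated. The common biological coefficient of variation was 0.293. SE is the log2 fold change divided by the square root of F. DESeq2 1.42.0 was an alternative. Lengths and coordinates came from GENCODE M21. For each gene the longest transcript with the best principal-isoform tag was taken, so that the length removed for a gene depends on this choice. The fit without the length trend used a lowess curve (span 0.3) for each library and was chosen after seeing the data, as was the DESeq2 test of the interaction. On simulated data the test recovered most of the larger and few of the smaller fold changes set in, and the pass mark for the larger was lowered after a first run fell just short of it, so that modest changes can be missed.

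The comparison, the gene lists and the tests were chosen with earlier results of these data known. Named genes were mostly list members that were called or had the smallest p, the 10 largest changes in each direction among called genes without overlap and with a mean log2 CPM of at least 2 (predicted genes skipped), and Insr. Some list members, such as Mki67 and Gapdh, were named outside this rule. Some list members and promoters were left out of the text after their values were seen, and 1 withheld item is not reported here. Total counts of 22028507 to 31832273 per multipara library leave counting error small for all but the lowest genes.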

Additional observations from a re-analysis of the deposited data

Results flagged for a closer look

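Of 147 groups of 4 S-961 libraries checked, 6 held a library farther from the others than Dixon's 95% limit of 0.829 for 4 values, and chance flags about 1 in 20. The summed CPM of the glucose response list was 2891 in S-961 replicate 4, against 2470 to 2516 in the others. Pdpk1 was at 66.0 CPM in replicate 2 against 87.8 to 89.3 CPM. Myc was at 30.1 CPM in replicate 3 against 35.7 to 36.4 CPM, and Tsc22d3 at 27.0 CPM in replicate 3 against 13.3 to 15.2 CPM. Rpl13a was at 413 CPM in replicate 2 against 274 to 286 CPM. Reg1 was at 91.4 CPM in replicate 4 against 279 to 297 CPM.

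Lrrc55 had opposite signs in the libraries labelled multipara and virgin, with a log2 fold change of -3.71 in multipara and 3.06 in virgin libraries. The difference of -6.76 did not pass edgeR's interaction test (adjusted p = 0.372) but passed DESeq2's (adjusted p = 0.000453). Lrrc55 was at 0.60, 0.32, 1.96 and 4.43 CPM in multipara S-961 replicates 1 to 4 and at 5.34 to 7.54 CPM in the virgin S-961 libraries, so that replicate 4 was nearest to the latter. The parity labels of the S-961 libraries are in doubt, and their part in this difference was not tested.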

How the results depend on the processing

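Genes called higher numbered 3272 and genes called lower 3496. With only the multipara libraries in the fit they were 2112 and 2316. With housekeeping scaling they were 4387 and 2006, where the median of all genes was 0.30. With the acinar mean as covariate both were 0. Leaving out 1 library gave 1585 to 3659 higher and 2033 to 3792 lower, the lowest in both cases without untreated replicate 1. Differences between parities were called for 0 genes by edgeR and 85 by DESeq2. The insulin share differed by -20.9 to -26.4 percentage points when 1 library was left out.

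With the replicate number as a block, 2839 genes were higher and 2791 lower. Samples that share a number had correlated deviations of -0.0143 and 0.122, so that the numbers were not taken to pair them.

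Signs turned for Iapp (0.36), Pyy (0.48), mt-Atp8 (0.17) and Gapdh (0.021) with the length trend removed, and for Insr with housekeeping scaling (0.21), without S-961 replicate 2 (0.10) and without untreated replicate 2 (0.11), with a range of -0.22 to 0.11 when 1 library was left out. With the acinar covariate they turned for Glp1r (0.16), Insr (0.0527), Cdkn2c (-1.13), Fen1 (-0.33), Pbk (-6.51), Anln (-1.70), Cenpi (-5.53), Mki67 (-6.40), Socs3 (-0.66), Prlr (-0.25), Ptf1a (-4.31), Rbpjl (-2.96), Amy2a5 (-1.35) and Cd52 (0.36). The cause was not tested. Of 103 called genes named, 80 kept their call without untreated replicate 1, 89 without untreated replicate 2 and 103 without S-961 replicate 4. Precision was limited by the 2 untreated libraries, 1 of which stood apart in immune and red cell mRNA, and counting error limits genes near 1 CPM or below.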
